A study of Mus musculus with 6 samples.

Results

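The genes described here are regulators and surface markers of the epithelial-mesenchymal transition (EMT), chosen by symbol from the deposited table of EO771 cells. The 10 members are the transcription factor genes Snai1, Snai2, Twist1, Zeb1 and Zeb2, the cadherin genes Cdh1 and Cdh2, the epithelial surface gene Epcam, and the epithelial regulators Esrp1 and Grhl2. Of these, 9 had a row among the 19832 genes of the table, and Esrp1 was not analysed here. EO771 is a mouse mammary tumour line grown in culture. RNA sequencing was done on 3 libraries of EO771 cells given recombinant lipocalin-2 protein (LCN2) and on 3 libraries of EO771 cells labelled Control. The labels name no dose, exposure time, vehicle or batch, and both groups are the same line with no stated genetic change. The series concerns LCN2-positive mast cells of lymph nodes and cancer stemness, and this comparison asks what added LCN2 does to the transcripts of the tumour cells.

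In an epithelial cell, E-cadherin (Cdh1) holds neighbours together at adherens junctions and EpCAM (Epcam) sits on the lateral membrane. During EMT, the zinc-finger repressors of the SNAIL and ZEB families bind short DNA elements called E-boxes in epithelial promoters and lower their transcription, while N-cadherin (Cdh2) often takes the place of E-cadherin. Grhl2 and Esrp1 act on the epithelial side. Grhl2 is a grainyhead-family activator of Cdh1 and other junction genes, and Esrp1 is a splicing factor that keeps epithelial mRNA isoforms. Tumour cells often hold both epithelial and mesenchymal transcripts at once.

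Values are given as FPKM, sequenced fragments per unit of transcript length and of sequencing output, which is the unit inferred for the deposited table. Each library listed 13299 to 13461 genes above 0, and columns summed to between 391569 and 410808 FPKM. Read depth is unknown, so no counting intervals are given. On the first principal component of all tested genes the LCN2 libraries lay at 15.7, 4.34 and 16.5 for replicates 1 to 3, and the Control libraries at -17.3, -8.09 and -11.1. LCN2 replicate 2 was thus the LCN2 library closest to the Control side. Keratin genes of luminal mammary cells were high, with Krt8 at a mean of 276 FPKM and Krt18 at 719 FPKM over the 6 libraries. The other luminal markers ranged widely, with Krt19 at 207 FPKM, Cldn3 at 93.3 FPKM, Epcam at 14.9 FPKM, Cldn4 at 2.59 FPKM and Cdh1 at 0.148 FPKM. Single markers of other cell types were also high, with the basal keratin Krt14 at 47 FPKM and the fibroblast marker Dcn at 550 FPKM. The other basal markers were low, with Krt5 at 0.713 FPKM and Krt17 listed at 0 in every library. Acta2, Myh11 and Oxtr had means of 0.0103 FPKM or less. The other fibroblast markers were Pdgfra at 3.96 FPKM, Col1a1 at 0.0813 FPKM and Pdgfrb at 0. The mast cell genes Cpa3, Mcpt4, Tpsb2 and Fcer1a were listed at 0 in every library.

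In these cells the EMT genes formed a mixed picture. Snai1 and Epcam were each above 12 FPKM in all 6 libraries, Zeb1 and Cdh2 lay between 4.84 and 7.57 FPKM, Zeb2 and Grhl2 lay between 0.45 and 2.49 FPKM, Cdh1 reached 0.209 FPKM at most, and Snai2 and Twist1 were listed at 0 throughout. With LCN2, Zeb2 rose, to 2.34 ± 0.158 FPKM against 1.55 ± 0.367 FPKM in Control (SD, n = 3 each). Epcam averaged 13.4 ± 0.831 FPKM with LCN2 and 16.4 ± 1.04 FPKM in Control and just missed the threshold. Grhl2 was under the level required for testing, and its LCN2 values all lay above its Control values.

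Testing required a 6-library mean of 1 FPKM or more, which 10309 genes reached, and 5 of the members were among them. By limma on log2(FPKM + 1) after scaling between libraries, a gene was called at a two-sided p under 0.05 after Benjamini-Hochberg adjustment. Of the 5 tested members 1 was called higher (Zeb2) and 0 were called lower, where 11.8% of all tested genes were called higher and 9.73% were called lower. At an unadjusted p under 0.05, Snai1 was also higher and Epcam was lower. The share of all tested genes under that unadjusted p was not counted, here or for the lists below. The median log2 fold change of the 5 tested members was 0.14, against 0.000775 over all tested genes, with 4 values above 0 and 1 below. A positive log2 fold change means higher with LCN2, and the added 1 in log2(FPKM + 1) understates the change of genes of low level.

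**Figure D1:**
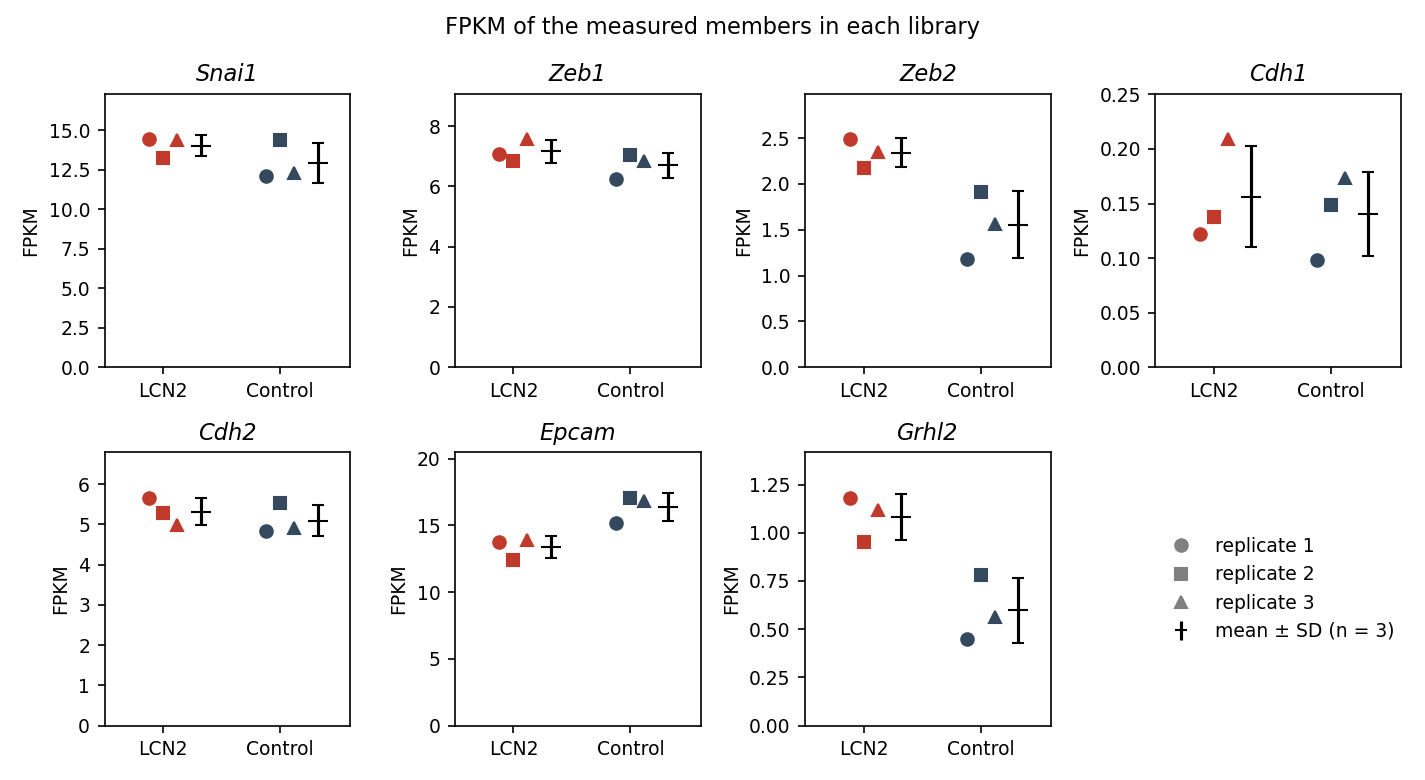
FPKM as deposited for the 7 members above 0, in the 3 LCN2 libraries (left, red) and the 3 Control libraries (right, blue), with symbols for the replicate number and bars for the mean ± SD. The LCN2 values of Zeb2 and Grhl2 lie above their Control values, those of Epcam lie below, and the groups overlap for the other 4 genes.

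Snai1 encodes SNAIL, a repressor of Cdh1 with a short-lived protein, and lies on chromosome 2 from 167538195 to 167542814 (GRCm38, plus strand). It had 14.4, 13.2 and 14.4 FPKM in LCN2 replicates 1 to 3, against 12.1, 14.4 and 12.3 FPKM in Control replicates 1 to 3. Control replicate 2 was as high as the 2 upper LCN2 libraries, so the groups overlapped. The means were 14.0 ± 0.676 FPKM with LCN2 and 12.9 ± 1.28 FPKM in Control (SD, n = 3 each). The log2 fold change was 0.17 with a 95% interval from 0.019 to 0.32 (limma, adjusted p = 0.0952), and Snai1 was not called. Among the 6 fits that left out 1 library it was called only without LCN2 replicate 2 (0.22, limma adjusted p = 0.0444). That fit called 30.7% of all tested genes. The highest limma adjusted p of Snai1 among the 6 was 0.248. By its mean over the 6 libraries Snai1 was the second most abundant member after Epcam, with 74.6% of the table's genes below it. In each LCN2 library Snai1 was above Epcam, and in each Control library it was below.

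Snai2, the gene of the related repressor SLUG (chromosome 16, 14705852 to 14709385), was listed at 0 in all 6 libraries. So was Twist1, a basic helix-loop-helix factor that induces EMT (chromosome 12, 33957671 to 33959829). A listed 0 may also be a level that could not be estimated, and 5744 genes were at 0 in every library. Twist2, the paralogue of Twist1, was present at 12.5, 13.0 and 9.93 FPKM with LCN2, against 12.7, 13.2 and 13.3 FPKM in Control. LCN2 replicate 3 was the lowest of these libraries and the groups overlapped, with no call (limma, adjusted p = 0.513). Twist2 was singled out here after its values were seen.

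Zeb2 encodes a zinc-finger and homeodomain repressor with E-box binding, also called SIP1, and spans 44983632 to 45117395 on the minus strand of chromosome 2. Its levels were 2.49, 2.17 and 2.35 FPKM in LCN2 replicates 1 to 3, against 1.18, 1.92 and 1.56 FPKM in Control replicates 1 to 3. All 3 LCN2 libraries lay above all 3 Control libraries, a separation upwards that 11.9% of tested genes showed in the deposited values. The nearest pair was LCN2 replicate 2 and Control replicate 2. Zeb2 averaged 2.34 ± 0.158 FPKM with LCN2 and 1.55 ± 0.367 FPKM in Control (SD, n = 3 each), a ratio of 1.5. The log2 fold change was 0.44 (SE 0.11, 95% interval 0.19 to 0.69), and Zeb2 rose with an adjusted p of 0.0301 in limma. The call was lost without LCN2 replicate 1 (limma adjusted p = 0.105), LCN2 replicate 3 (0.0961), Control replicate 1 (0.077) or Control replicate 3 (0.0795), with log2 fold changes between 0.34 and 0.52 over the 6 fits that left out 1 library. Exons of the antisense gene Zeb2os and of Gm27761 and Mir5129 overlap 3.3% of the exonic bases of Zeb2. The treatment of strand is not given in the sources used here, so reads from that stretch cannot be told apart.

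Zeb1, the other ZEB-family repressor and the more abundant of the pair here, was not called. It had 7.08, 6.83 and 7.57 FPKM with LCN2, against 6.23, 7.03 and 6.84 FPKM in Control. In the deposited values the groups overlapped, with Control replicates 2 and 3 above LCN2 replicate 2. After scaling between libraries they did not, at 7.27, 6.91 and 7.80 with LCN2 and 6.23, 6.61 and 6.81 in Control. Scaling divided LCN2 libraries by 0.97 to 0.989 and Control libraries by 1 to 1.06, which raises LCN2 relative to Control for every gene. The share of all tested genes separated after scaling was not counted. The log2 fold change was 0.14 with a 95% interval from -0.0097 to 0.29 (limma, adjusted p = 0.148), so a rise as large as the fitted value of 0.44 in Zeb2 lay outside the interval of Zeb1. The ratio of Zeb1 to Zeb2 was 2.85 to 3.22 in LCN2 libraries and 3.67 to 5.27 in Control libraries. Those ranges do not overlap, and the ratio was not tested. Zeb1 lies on chromosome 18 from 5591860 to 5775467 (plus strand), and 1.93% of its exonic bases overlap an antisense gene, Gm10125.

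**Figure D2:**
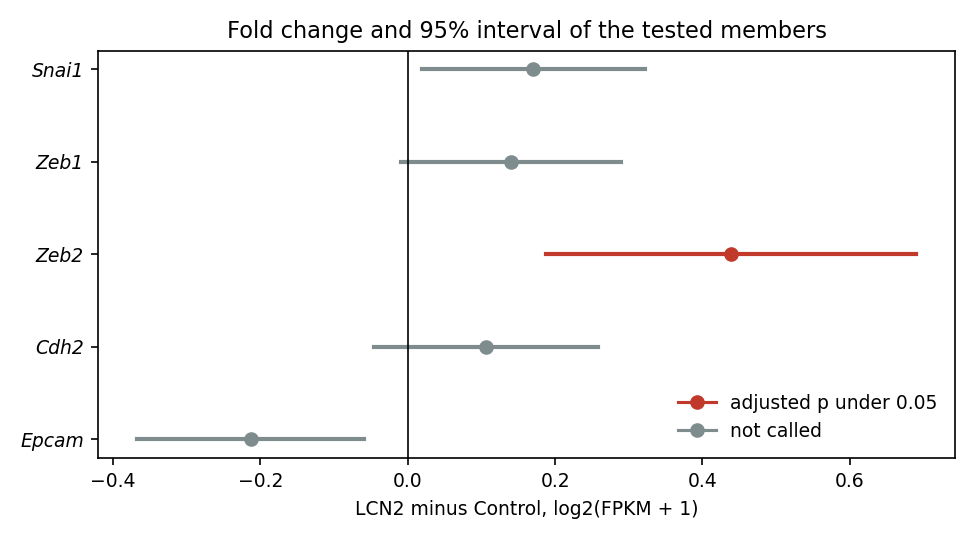
Log2 fold change (LCN2 minus Control, log2(FPKM + 1) after scaling) of the 5 tested members, with 95% intervals from limma; red marks an adjusted p under 0.05. Zeb2 at 0.44 is the called member, the intervals of Zeb1 and Cdh2 include 0, and Epcam at -0.21 is the value below 0.

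Cdh1 transcripts were scarce in both groups, while keratin transcripts were abundant in the same libraries. Cdh1 (chromosome 8, 106603351 to 106670246, plus strand) had 0.122, 0.138 and 0.209 FPKM with LCN2, against 0.0981, 0.149 and 0.173 FPKM in Control. The groups overlapped, and replicate 3 was the highest in each. The means were 0.156 ± 0.0464 FPKM with LCN2 and 0.140 ± 0.0384 FPKM in Control (SD, n = 3 each), and a two-sided exact permutation test gave p = 0.7, where 0.1 is the smallest value that 3 against 3 allows. With the required mean lowered to 0.1 FPKM, the log2 fold change was 0.029 (limma, adjusted p = 0.787).

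Cdh2, the N-cadherin gene, was far above Cdh1 in every library. It had 5.67, 5.30 and 5.0 FPKM with LCN2, against 4.84, 5.53 and 4.91 FPKM in Control, and the groups overlapped. The log2 fold change was 0.11 with a 95% interval from -0.045 to 0.26 (limma, adjusted p = 0.263). The ratio of Cdh2 to Cdh1 lay between 23.9 and 46.5 in LCN2 libraries and between 28.3 and 49.4 in Control libraries. N-cadherin transcript thus exceeded E-cadherin transcript in every library of both groups, and the 2 ranges overlapped. Cdh2 spans 16588877 to 16809246 on the minus strand of chromosome 18.

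The table held 21 genes with a Cdh symbol, of which 4 had a mean of at least 1 FPKM, 6 were above 0 and under 1 FPKM, and 11 were listed at 0 in every library. In order of mean level these were Cdh17 (16.6 FPKM), Cdh2 (5.21), Cdh24 (2.85), Cdh10 (2.67), Cdh6 (0.865) and, sixth, Cdh1 (0.148). Cdh24 and Cdh10 overlap across the 6 libraries, and the other neighbours down to Cdh1 do not. Cdh17, known as liver-intestine cadherin, was therefore the leading cadherin transcript, and it rose. It had 20.1, 17.8 and 20.8 FPKM with LCN2, against 13.3, 14.7 and 12.9 FPKM in Control. Every LCN2 library lay above every Control library, as in 11.9% of all tested genes. The log2 fold change was 0.55 (SE 0.071, limma adjusted p = 0.00583), and the call held in each of the 6 fits that left out 1 library. Cdh10, a neuronal type II cadherin, fell to 1.99 ± 0.379 FPKM with LCN2, against 3.35 ± 0.473 FPKM in Control (SD, n = 3 each), a log2 fold change of -0.50 (limma, adjusted p = 0.0235). Among the fits with 1 library left out, Cdh10 was called only without LCN2 replicate 2 (highest limma adjusted p 0.0702). Of the 13 other cadherins listed as a pathway, 11 were in the table and 3 were tested, with 1 higher, 1 lower and 1 not called. The uncalled gene was Cdh24, at 2.62 ± 0.221 FPKM with LCN2 and 3.09 ± 0.226 FPKM in Control (limma, adjusted p = 0.299). In the deposited values Cdh10, Cdh24 and the untested Cdh6 were each separated downwards, as were 30.8% of tested genes. For Cdh24 the gap was narrow, with 2.82 FPKM as the highest LCN2 value and 2.83 FPKM as the lowest Control value. After scaling between libraries, LCN2 replicate 2 lay above Control replicate 2 for Cdh24, so its groups overlapped.

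**Figure D3:**
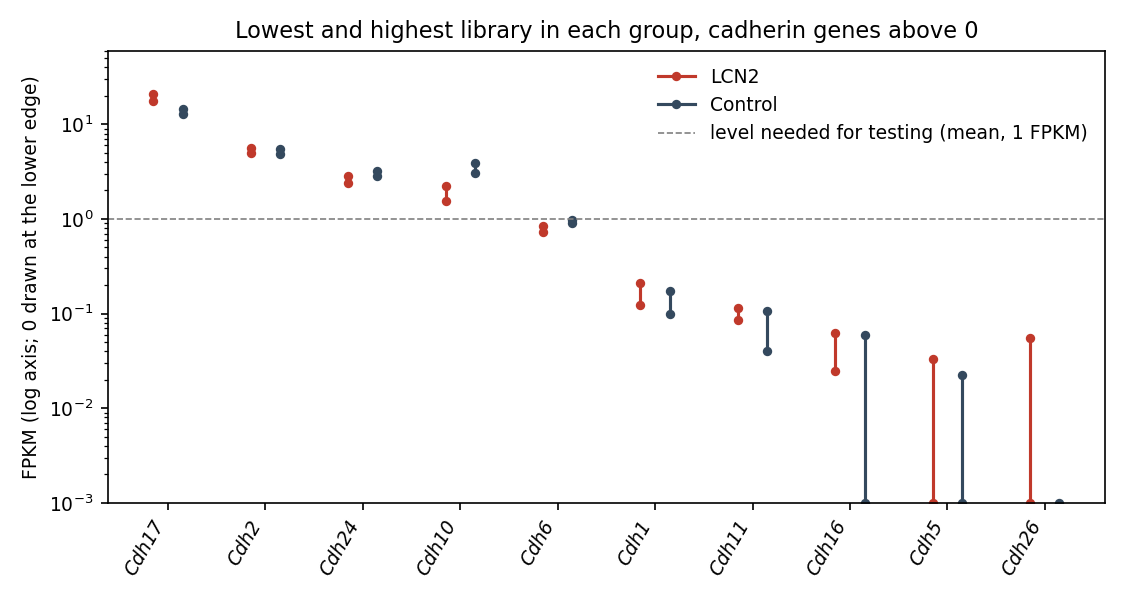
Lowest and highest FPKM of each group (LCN2 left in red, Control right in blue) on a log axis, for the 10 cadherin genes above 0; values of 0 are drawn at the lower edge. Cdh17 is highest and is separated between the groups upwards. In these values as deposited, Cdh24 (narrowly), Cdh10 and Cdh6 are separated downwards, and Cdh1 is sixth with overlapping groups.

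Epcam was the most abundant member by the mean over the 6 libraries, and the one whose LCN2 libraries all lay low. It encodes a membrane glycoprotein of epithelial cells that serves in adhesion and, after cleavage, in signalling, and it spans 87635979 to 87651129 on the plus strand of chromosome 17. It had 13.8, 12.4 and 13.9 FPKM with LCN2, against 15.2, 17.1 and 16.8 FPKM in Control. Every LCN2 library lay below every Control library, a separation downwards that 30.8% of tested genes showed in the deposited values. The means were 13.4 ± 0.831 FPKM with LCN2 and 16.4 ± 1.04 FPKM in Control (SD, n = 3 each), a ratio of 0.817. The log2 fold change was -0.21 (SE 0.066, 95% interval -0.37 to -0.059), which missed the threshold (limma, adjusted p = 0.0559). The call depended on the scaling between libraries. Epcam was called lower in the values as deposited (-0.27, limma adjusted p = 0.0278), scaled to column sums (-0.24, 0.0395) and after quantile normalization (-0.23, 0.0414), and missed the threshold with median-ratio scaling (-0.22, 0.0524). It was below 0 under each of these, and it was not called in any fit that left out 1 library (limma adjusted p between 0.0745 and 0.161). The ratio of Epcam to Cdh2 was 2.34 to 2.79 in LCN2 libraries and 3.09 to 3.43 in Control libraries, with no overlap and no test.

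SNAIL and ZEB proteins bind the E-box CACCTG, whose reverse complement is CAGGTG. The 250 bases before the annotated start were searched for both spellings in the RefSeq promoter table (GRCm38.p6), where 4 members had an entry, Zeb2 with 4 starts. Epcam held 2 matches, starting at -187 (CACCTG) and -19 (CAGGTG) from the start site, and Snai1 held 1, at -126. Zeb2 and Twist1 held 0 in these windows. Among 32817 promoter windows of the same length, 17.2% held at least 1 match and 2.07% held at least 2. The windows of Epcam (chr17:87635729-87635978, plus strand) and Snai1 (chr2:167537945-167538194, plus strand) are shown because they carry the matches, 5′ to 3′, with the E-box in capitals.
Epcam: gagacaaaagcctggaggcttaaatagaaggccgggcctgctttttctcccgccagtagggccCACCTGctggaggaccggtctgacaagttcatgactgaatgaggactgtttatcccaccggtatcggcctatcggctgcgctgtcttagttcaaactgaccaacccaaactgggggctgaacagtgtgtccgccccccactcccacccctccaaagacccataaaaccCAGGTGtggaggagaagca
Snai1: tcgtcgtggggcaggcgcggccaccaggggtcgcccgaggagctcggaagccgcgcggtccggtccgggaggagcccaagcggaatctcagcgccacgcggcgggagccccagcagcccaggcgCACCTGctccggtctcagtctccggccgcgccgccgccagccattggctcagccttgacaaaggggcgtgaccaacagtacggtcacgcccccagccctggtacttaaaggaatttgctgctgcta
A match is a description of these letters, and no binding was measured.

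Grhl2 was separated upwards between the groups, as was Zeb2, while Epcam was separated downwards. It had 1.18, 0.95 and 1.12 FPKM with LCN2, against 0.450, 0.780 and 0.563 FPKM in Control. All LCN2 libraries lay above all Control libraries, as in 11.9% of tested genes in the deposited values, though Grhl2 is not among those tested. LCN2 replicate 2 and Control replicate 2 were nearest to each other, as in Zeb2. The means were 1.08 ± 0.12 FPKM with LCN2 and 0.598 ± 0.168 FPKM in Control (SD, n = 3 each), a ratio of 1.81, and a two-sided exact permutation test gave p = 0.1, the smallest that 3 against 3 allows. Its mean over the 6 libraries, 0.840 FPKM, was under the level required for testing. With that level lowered to 0.1 FPKM the log2 fold change was 0.42 and Grhl2 passed (limma, adjusted p = 0.0231), as did 17.7% of genes in either direction. It also passed with no filter (limma, adjusted p = 0.0335), where 6.27% of genes were called higher and 4.27% lower, and with no filter and a pseudocount of 0.1 (0.84, limma adjusted p = 0.0399). At the lower filter, the call was lost without LCN2 replicate 1 (limma adjusted p = 0.0897), LCN2 replicate 3 (0.0834), Control replicate 1 (0.0745) or Control replicate 3 (0.0787). Grhl2 lies on chromosome 15 from 37233036 to 37363569 (plus strand), and 1.96% of its exonic bases overlap the antisense gene Gm16136.

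Zeb2 and Grhl2, known for opposite roles in EMT, were thus both high in all 3 LCN2 libraries. The ratio of Zeb1 to Grhl2 was 5.99 to 7.19 in LCN2 libraries and 9.01 to 13.8 in Control libraries, ranges that do not overlap. The ratio of Snai1 to Zeb1 was 1.90 to 2.04 with LCN2 and 1.80 to 2.05 in Control, and those ranges overlap. The ratio of Epcam to Cdh1 was 66.6 to 113 with LCN2 and 97.1 to 155 in Control. None of these ratios was tested.

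**Figure D4:**
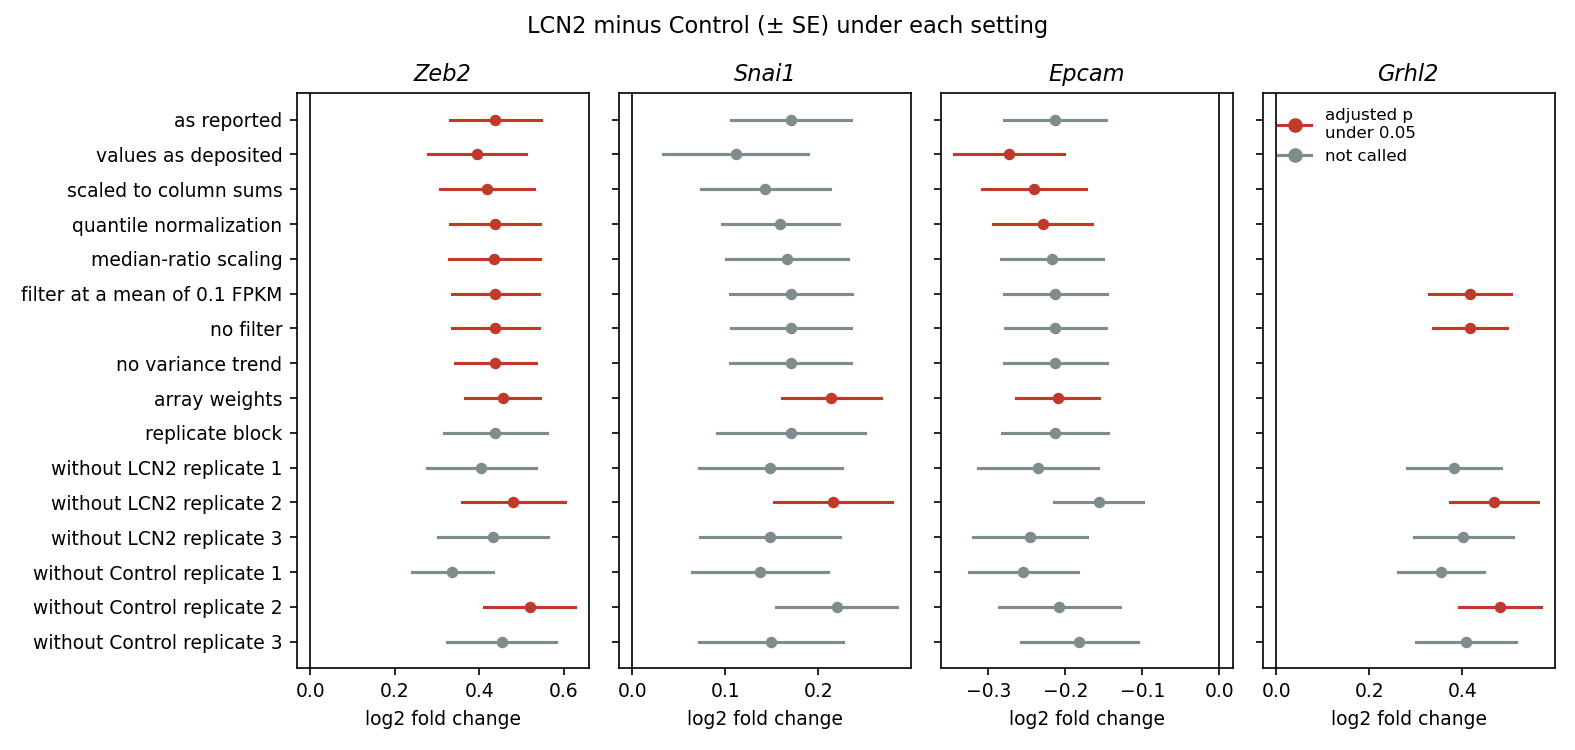
Log2 fold change ± SE (LCN2 minus Control) of Zeb2, Snai1, Epcam and Grhl2, with red for a limma adjusted p under 0.05 and grey otherwise. The settings with another pseudocount are not drawn. Grhl2 lies under the filter and is drawn only with the filter lowered or absent, and its fits that leave out 1 library use a required mean of 0.1 FPKM. Every value keeps its sign, and the calls of Zeb2 and Grhl2 are lost when LCN2 replicate 1 or 3 or Control replicate 1 or 3 is left out.

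The genes whose pattern over the 6 libraries was nearest to that of Zeb2, by the root mean square difference of centred log2(FPKM + 1), were Tlk2, Arf2 and Nr1d2. The distances were 0.0233 for Tlk2, 0.0329 for Arf2 and 0.0343 for Nr1d2. They are the 3 smallest of all tested genes and were found by likeness, so their fold changes of 0.47, 0.45 and 0.39 on the log2 scale add no support to that of Zeb2.

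The members stand in a wider network, which was read from 12 lists of related genes. The lists held 125 distinct tested genes other than the members, of which 21 were higher and 15 lower, 28.8% in either direction, where 21.5% of all tested genes were called in either direction. The lists were chosen with earlier results known, so nothing particular to them is read from that share. For each list below, the background is 11.8% of all tested genes called higher and 9.73% called lower. Of the 21 higher, Prss8 reached the required mean only through its LCN2 libraries. None of the 36 called genes changed sign under another scaling, but the count depended on the libraries. Leaving out LCN2 replicate 1 gave 4 higher and 2 lower, and leaving out LCN2 replicate 3 gave 6 and 4. Leaving out Control replicate 1 gave 8 and 4, and leaving out Control replicate 3 gave 6 and 3. With LCN2 replicate 2 left out there were 32 higher and 23 lower, and with Control replicate 2 left out 17 and 8. Over all tested genes the share called moved with the same libraries, from 2.6% without LCN2 replicate 1 up to 30.7% without LCN2 replicate 2. In the values as deposited 10 were higher and 25 lower. The genes called in each of the 6 fits that left out 1 library were Cdh17, Vim, Axl, Cldn3, Cldn4 and Tmprss2.

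Among 18 other EMT-inducing transcription factors, 15 were in the table and 9 were tested, with 2 higher, 0 lower and 7 not called (limma, median log2 fold change -0.034). At an unadjusted p under 0.05, 2 were higher and 1 was lower. Sox4, a SOX-family factor that acts in EMT, rose to 54.4 ± 5.18 FPKM with LCN2, against 39.8 ± 4.73 FPKM in Control (SD, n = 3 each). Its libraries lay between 48.4 and 57.5 FPKM with LCN2 and between 34.9 and 44.3 FPKM in Control (log2 fold change 0.51, limma adjusted p = 0.0139). The groups did not overlap, where 11.9% of all tested genes were separated upwards. Hmga2, an architectural chromatin protein that helps to induce Snai1 and Twist1, had 3.10, 2.26 and 2.62 FPKM with LCN2, against 2.00, 2.02 and 1.65 FPKM in Control, and it rose (0.38, limma adjusted p = 0.0416). The Sox4 call was lost without LCN2 replicate 1, LCN2 replicate 3 or Control replicate 3 (highest limma adjusted p 0.0639). That of Hmga2 held only without LCN2 replicate 2 among those 6 fits and was lost in the values as deposited (0.0534).

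Of 16 epithelial transcription factors, 14 were in the table and 6 were tested, with 0 higher, 1 lower and 5 not called (limma, median -0.0043). Unadjusted, 2 were higher and 1 was lower at p under 0.05. Elf3, an ETS-family factor of epithelial differentiation, fell to 45.1 ± 1.30 FPKM with LCN2, against 53.5 ± 2.50 FPKM in Control (SD, n = 3 each). The LCN2 libraries lay between 44.2 and 46.6 FPKM and the Control libraries between 50.6 and 55.2 FPKM (log2 fold change -0.18, limma adjusted p = 0.0356). Among the fits with 1 library left out, Elf3 was called only without LCN2 replicate 2 (highest limma adjusted p 0.12).

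Splicing regulators that set epithelial or mesenchymal isoforms were all measured, 11 of 11 tested, with 3 higher, 0 lower and 8 not called (limma, median -0.037). Unadjusted, 4 were higher and 0 lower at p under 0.05. The 3 that rose were Qk, which encodes quaking, a promoter of circular RNA formation and of mesenchymal splicing, Mbnl1, a muscleblind protein, and Rbfox2, a splicing factor that favours mesenchymal isoforms. Qk had 22.4, 19.1 and 21.8 FPKM with LCN2, against 15.7, 18.4 and 15.3 FPKM in Control (log2 fold change 0.40, limma adjusted p = 0.0161). Rbfox2 had 16.8, 15.9 and 20.2 FPKM with LCN2, against 13.1, 15.1 and 14.3 FPKM in Control (0.35, limma adjusted p = 0.0354). Mbnl1 averaged 55.8 ± 2.31 FPKM with LCN2 and 51.1 ± 1.58 FPKM in Control (0.19, limma adjusted p = 0.0331). None of the 3 overlapped between groups, where 11.9% of all tested genes were separated upwards. Each call was lost without LCN2 replicate 1, LCN2 replicate 3, Control replicate 1 or Control replicate 3, and those of Rbfox2 and Mbnl1 also without Control replicate 2 (highest limma adjusted p 0.107). In the values as deposited, Rbfox2 and Mbnl1 were not called, nor was Mbnl1 when scaled to column sums. Esrp2, the paralogue of the member Esrp1, is an epithelial splicing regulator and was named after its values were seen. It had 11.8, 11.8 and 11.5 FPKM with LCN2, against 13.5, 13.9 and 12.6 FPKM in Control, with no call (-0.11, limma adjusted p = 0.132).

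At the adherens junction, 12 of the 16 catenins and cadherin partners were tested, with 1 higher, 0 lower and 11 not called (limma, median -0.054). Unadjusted, 1 was higher and 4 were lower at p under 0.05. Nectin2, an immunoglobulin-like adhesion receptor of the junction, had 43.1, 41.7 and 41.2 FPKM with LCN2, against 34.8, 41.9 and 38.7 FPKM in Control. Control replicate 2 lay within the LCN2 range, so the groups overlapped in the deposited values (log2 fold change 0.19, limma adjusted p = 0.048). Nectin2 was called under none of the 4 other scalings, and among the fits that left out 1 library it was called only without Control replicate 2 (highest limma adjusted p 0.155). Among desmosome genes, 8 of 14 were tested, with 1 higher, 0 lower and 7 not called (limma, median 0.080). Unadjusted, 1 was higher and 0 were lower at p under 0.05. Pkp3, a plakophilin that links desmosomal cadherins to desmoplakin, had 8.76, 7.43 and 10.6 FPKM with LCN2, against 5.82, 7.48 and 6.77 FPKM in Control (0.42, limma adjusted p = 0.0497). LCN2 replicate 2 overlapped with Control replicate 2 for Pkp3, and the call was lost under 3 of the 4 other scalings. Among the fits with 1 library left out, Pkp3 was called only without LCN2 replicate 2 (highest limma adjusted p 0.142).

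Relatives, partners and sheddases of EpCAM moved in both directions. Of 15 such genes 11 were tested, with 2 higher, 3 lower and 6 not called (median 0.025). Fhl2, a LIM-domain coactivator that binds the cleaved intracellular part of EpCAM, rose to 7.72 ± 1.33 FPKM with LCN2, against 4.33 ± 0.472 FPKM in Control (SD, n = 3 each; log2 fold change 0.76, limma adjusted p = 0.00989). Tspan8, a tetraspanin found in complexes with EpCAM, had 207.6, 199.7 and 204.1 FPKM with LCN2, against 184.4, 182.3 and 181.5 FPKM in Control (0.22, limma adjusted p = 0.0152). Bace1, a protease that can cut EpCAM, fell to 14.0 ± 0.651 FPKM with LCN2, against 18.3 ± 0.781 FPKM in Control (-0.30, limma adjusted p = 0.0136). Groups did not overlap for these 3 genes, where 11.9% of all tested genes were separated upwards and 30.8% downwards. The calls of Fhl2 (limma adjusted p = 0.0518), Tspan8 and Bace1 were lost without LCN2 replicate 1, those of Tspan8 and Bace1 also without Control replicate 3, and that of Tspan8 also without LCN2 replicate 3 (highest limma adjusted p 0.0711).

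Of 12 proteases that cleave cadherins, 9 were tested, with 1 higher, 2 lower and 6 not called (median -0.0073). Mmp3, stromelysin 1, which can cut E-cadherin, had 2.35, 2.20 and 2.41 FPKM with LCN2, against 0.947, 1.47 and 1.22 FPKM in Control (log2 fold change 0.63, limma adjusted p = 0.00969). Its groups did not overlap, where 11.9% of all tested genes were separated upwards. The Mmp3 call was lost without LCN2 replicate 1 (limma adjusted p = 0.0516). Adam10, a sheddase of E-cadherin and N-cadherin, fell to 17.8 ± 0.334 FPKM with LCN2, against 20.8 ± 0.915 FPKM in Control (-0.15, limma adjusted p = 0.0423). Adam15, a related metalloprotease, fell to 43.1 ± 1.11 FPKM with LCN2, against 50.3 ± 2.42 FPKM in Control (-0.15, limma adjusted p = 0.0402). Adam10 and Adam15 were not called in any fit with 1 library left out (highest limma adjusted p 0.128 for Adam10 and 0.14 for Adam15). Adam10 was also counted among the partners of EpCAM.

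Among genes of the proteins that SNAIL and ZEB factors work with, 2 corepressors fell and 1 kinase rose. Of 19 corepressor genes 18 were tested, with 0 higher, 2 lower and 16 not called (limma, median -0.026). Unadjusted, 2 were higher and 5 lower at p under 0.05. Sin3a, a scaffold of histone deacetylase complexes, had 9.84, 11.3 and 9.58 FPKM with LCN2, against 14.1, 12.8 and 12.6 FPKM in Control (log2 fold change -0.28, limma adjusted p = 0.0407). Dnmt1, the maintenance DNA methyltransferase, had 59.9, 65.5 and 53.5 FPKM with LCN2, against 73.6, 75.3 and 71.1 FPKM in Control (-0.24, limma adjusted p = 0.0421). All LCN2 libraries lay below all Control libraries for both genes, as in 30.8% of all tested genes. Both calls were lost without LCN2 replicate 1 or 3 or Control replicate 1 or 3, and that of Dnmt1 also without Control replicate 2 (highest limma adjusted p 0.132 for Sin3a and 0.115 for Dnmt1). Of 21 genes for turnover and localisation of SNAIL proteins 20 were tested, with 1 higher, 0 lower and 19 not called (limma, median 0.069). Unadjusted, 5 were higher and 1 was lower at p under 0.05. Csnk1e, a casein kinase that phosphorylates SNAIL, averaged 30.9 ± 1.22 FPKM with LCN2 and 27.1 ± 2.34 FPKM in Control (SD, n = 3 each; 0.25, limma adjusted p = 0.0238), with Control replicate 2 inside the LCN2 range. Without LCN2 replicate 1 or 3 or Control replicate 1 or 3 the Csnk1e call was lost (highest limma adjusted p 0.0926), and it was lost in the values as deposited.

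Mesenchymal genes were split. Of 18 such genes 8 were tested, with 4 higher, 2 lower and 2 not called (median 0.10). Vim, the intermediate filament gene vimentin and a standard EMT marker, fell to 235.3 ± 9.14 FPKM with LCN2, against 308.6 ± 3.81 FPKM in Control (SD, n = 3 each; log2 fold change -0.33, limma adjusted p = 0.00558). Its libraries had 234.4, 244.8 and 226.6 FPKM with LCN2, against 311.2, 310.5 and 304.3 FPKM in Control, far apart relative to the spread within each group. Axl, a receptor tyrosine kinase of mesenchymal tumour cells, had 41.9, 38.2 and 44.3 FPKM with LCN2, against 28.5, 32.7 and 30.3 FPKM in Control, and it rose (0.49, limma adjusted p = 0.00651). Itga5, the fibronectin-receptor integrin subunit, rose by a smaller amount (0.24, limma adjusted p = 0.0168), and its call was lost in the values as deposited and without LCN2 replicate 1 or 3 or Control replicate 1 or 3. In the same libraries the summed level of the 4 fibroblast markers in the table was 581 to 612 FPKM with LCN2 and 489 to 545 FPKM in Control. Dcn carried this sum at a mean of 550 FPKM, while Col1a1 had a mean of 0.0813 FPKM and Pdgfrb was listed at 0 in every library.

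Epithelial genes that ZEB or SNAIL proteins are known to repress also moved in both directions. Of 25 such genes 23 were in the table and 15 were tested, with 5 higher, 5 lower and 5 not called (median 0.0030). Over all tested genes 11.8% were called higher and 9.73% lower. Prss8, among the 5 higher, averaged 1.42 FPKM with LCN2 and 0.852 FPKM in Control. It thus reached the required mean only through its LCN2 libraries, and its call is not read as support. Cldn4, a claudin of epithelial tight junctions, averaged 3.99 ± 0.943 FPKM with LCN2 and 1.19 ± 0.340 FPKM in Control (SD, n = 3 each). Its libraries lay between 3.43 and 5.08 FPKM with LCN2 and between 0.943 and 1.58 FPKM in Control, and Cldn4 rose by 1.23 on the log2 scale (SE 0.15, limma adjusted p = 0.00558). Tmprss2, a membrane serine protease of epithelia, fell to 18.0 ± 1.79 FPKM with LCN2, against 27.1 ± 1.87 FPKM in Control (SD, n = 3 each; -0.51, limma adjusted p = 0.00651). Krt8, a keratin of simple epithelia, fell to 244.3 ± 11.5 FPKM with LCN2, against 308.2 ± 7.37 FPKM in Control (-0.27, limma adjusted p = 0.00957). The Krt8 call was lost without LCN2 replicate 1 (limma adjusted p = 0.0526). The other keratins of the list, named after their values were seen, went in opposite directions. Krt19 was called lower (-0.22, limma adjusted p = 0.0226) and Krt18 higher (0.17, limma adjusted p = 0.0311). Both calls were lost without LCN2 replicate 1 or 3 or Control replicate 1 or 3, and that of Krt18 also in the values as deposited. Cldn3, a related claudin taken as the other strong riser after its values were seen, had 112.8, 95.5 and 112.0 FPKM with LCN2, against 75.7, 84.3 and 79.9 FPKM in Control (0.47, limma adjusted p = 0.00969).

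**Figure D5:**
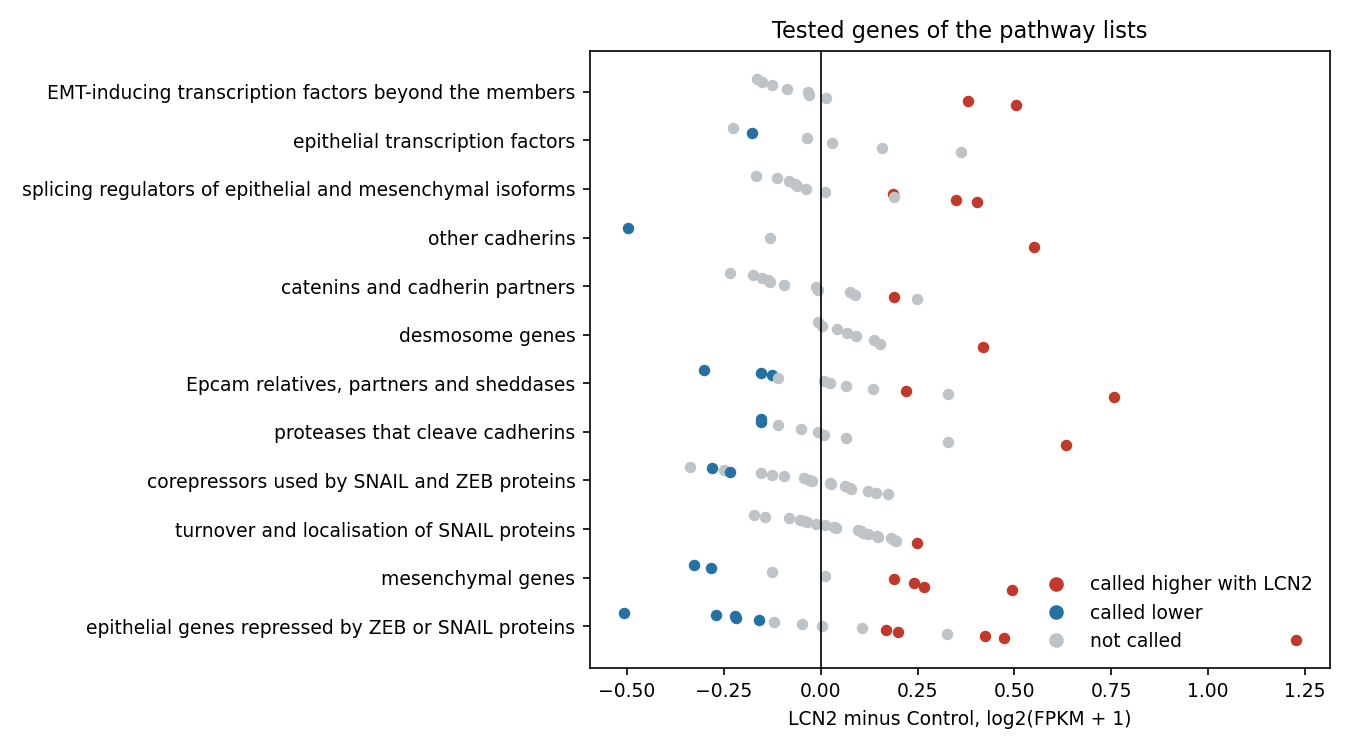
Log2 fold change (LCN2 minus Control, log2(FPKM + 1) after scaling) of each tested gene in the 12 lists, 1 point per gene, with red for called higher, blue for called lower and grey for not called; a gene in 2 lists is drawn in both. The called genes of the epithelial and mesenchymal lists lie on both sides of 0, with Cldn4 farthest to the right at 1.23.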

How the data were processed

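The authors deposited 1 table with a value per gene and library for EO771 cells. The name of the deposited file calls the values raw counts, which goes against the unit used here. Its values above 0 are never whole numbers (0% within 1e-09), so they were treated as FPKM, a unit inferred from the deposited values and stated by no label. Per the labels' protocols, RNA was extracted with an RNeasy kit and libraries were made with a SMARTer mRNA kit. Per the submitters' processing notes the build was GRCm38. No source used here names an aligner, a quantifier or a strand setting, and read depth is unknown.

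Values were scaled by TMM (trimmed mean of M-values) without count weights, trimming a share of 0.3 of ratios and 0.05 of levels, with factors taken from genes at a mean of at least 1 FPKM. Factors lay between 0.97 and 1.06. Genes with that mean were tested in limma 3.58.1 (R 4.3.3) on log2(FPKM + 1) with a variance trend and Benjamini-Hochberg adjustment over the 10309 genes. Means ± SD are of values as deposited. The fit was tested on simulated data. Members under the filter were compared by exact permutation tests. Of 19832 gene IDs, 19752 were found in GENCODE M21.

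Members, lists and settings were chosen with earlier results of these data known. Genes named are the members, up to 3 called genes per list with the smallest adjusted p, and the 3 genes nearest to each called member; others, among them the cell type markers and the cadherins ordered by level, were named after their values were seen. No label says that replicates were separate cultures, so each p-value reflects the spread of these libraries, and that spread may be technical. Alternatives were 4 other scalings, other pseudocounts and filters, no variance trend, array weights, a replicate block and leaving out each library; fits at a required mean of 0.1 FPKM with 1 library left out were added after seeing the data.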

Additional observations from a re-analysis of the deposited data

How the results depend on the processing

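Of the members, 1 was called higher and 0 lower. With a required mean of 0.1 FPKM, with no filter, or with array weights, 2 were called higher, Grhl2 joining Zeb2 with the lower or absent filter and Snai1 joining it with array weights. In the fits that left out 1 library, the number called higher ranged from 0 to 2 and the number called lower was 0. In the values as deposited, scaled to column sums, after quantile normalization and with array weights, 1 member was called lower, Epcam. Zeb2 was called in 10 of 12 other settings; it was lost with no filter and a pseudocount of 0.1 (limma adjusted p = 0.0547) and with the replicate block (0.0863). With the replicate block 0 members were called higher, and over all genes 181 were higher and 81 lower, against 1213 and 1003 without it. Libraries of the same number did not deviate together (correlations -0.224, -0.261 and 0.00858). With 3 libraries per group these correlations cannot show whether libraries were paired, and the labels give the number no meaning. Cdh1 had a log2 fold change of -0.0056 without LCN2 replicate 3 at a required mean of 0.1 FPKM, a sign turned against 0.029 at that filter with all libraries. The cause was not tested.

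Over all tested genes, 45.3% of calls were lower, against 70.8% in the values as deposited (693 higher, 1680 lower) and 57.9% scaled to column sums (950 higher, 1308 lower). Leaving out 1 library gave between 179 and 1659 genes higher and between 89 and 1501 lower. Depth is unknown, so no floor can be given for Cdh1, Snai2 or Twist1.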
